A study of Mus musculus with 29 samples.

Results

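The 7 genes described here encode 4 receptors and 3 ligands, grouped as ones known for holding microglia and other myeloid cells in check. They were followed through TRAP-RNAseq libraries of mouse brain. The receptors were Cd200r1, Sirpa, Cd33 and Lair1, and the ligands were Cd200, Cd47 and Cd24a. They were found by their symbols, which matched 7 of the 36172 gene rows of the count table. NuTRAP mice express an EGFP-tagged ribosomal protein after Cre recombination, and TRAP pulls the tagged ribosomes down with an anti-GFP antibody, so that the bound RNA (positive fraction) can be set beside the unbound RNA (negative fraction). Both lines carried a heterozygous Cre driver and a heterozygous NuTRAP allele, and male and female mice received tamoxifen at 100 mg/kg daily for 5 days at about 3 months of age, so every library came from an induced, Cre-positive mouse. The Aldh1l1-Cre/Ert2+; NuTRAP+ mice (Aldh1l1-NuTRAP, astrocyte driver) gave a positive and a negative fraction from 3 mice each. The Cx3cr1-Cre/Ert2+; NuTRAP+ mice (Cx3cr1-NuTRAP, microglial driver) gave an input, a negative and a positive fraction from each of 6 mice and a whole tissue library from 5 of them. Input is the cleared homogenate of a hemisphere before the pulldown. Whole tissue, titled Slice in the labels, was RNA isolated from brain without the pulldown. The labels do not say which piece of brain this was, so piece and processing cannot be told apart in comparisons with whole tissue. The Cx3cr1 driver is inserted in the Cx3cr1 gene, which other brain macrophages also use, and fractions of 1 mouse carry the same mouse number. No library of a Cre-negative mouse was analysed here. The study delayed collection of Cx3cr1-NuTRAP brains by some weeks after tamoxifen. It took Aldh1l1-NuTRAP brains for cytometry and imaging sooner, and states no interval for their libraries.

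The 29 libraries held between 4260949 and 26857866 counts, the lowest being the whole tissue of mouse 210. The marker genes followed the labels. All 16 microglia markers were higher in the Cx3cr1-NuTRAP positive fraction than in input. All 16 were lower in the Aldh1l1-NuTRAP positive than in its negative fraction, where all 12 astrocyte markers were higher. At least Siglech of these microglia markers passed the filter on low counts in the Aldh1l1-NuTRAP comparison through the negative fraction alone, in which it is high. In CPM, the counts scaled by the library total to the usual common size, the summed microglia markers reached 4055 to 9966 in the Cx3cr1-NuTRAP positive fraction, 494 to 541 in input and 81.1 to 169 in the Aldh1l1-NuTRAP positive fraction. The 7 markers of border-associated macrophages were also all higher in the Cx3cr1-NuTRAP positive fraction than in input, with sums of 75.1 to 248 CPM against 11.6 to 26.9 CPM. Microglia and these macrophages thus cannot be told apart in the pulldown. Only 3 of these markers were tested between negative fraction and input, so most passed the filter on low counts through the positive fraction alone, in which they are high. The astrocyte, neuron and oligodendrocyte markers were still present in the Cx3cr1-NuTRAP positive fraction, at sums of 3405 to 5232, 6547 to 9935 and 1387 to 3698 CPM. In bulk libraries of this kind, a smaller number of cells of a type and less RNA per cell cannot be told apart.

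Restraint receptors typically carry short tyrosine motifs in their cytoplasmic tails, or dock adaptor proteins. When bound by ligand they recruit phosphatases or RasGAP that dampen activating signals. CD200R1 binds CD200, SIRPα binds CD47 (a signal against phagocytosis), CD33 is a siglec that binds sialic acids, LAIR1 binds collagens and C1q, and CD24 is a heavily glycosylated surface protein bound by siglecs. In brain, neurons are a known source of CD200 and CD47, and microglia are known for the receptors.

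Among the 4 receptors, Cd200r1, Cd33 and Lair1 stood about 6-fold higher in the Cx3cr1-NuTRAP positive fraction than in input, whereas Sirpa was abundant in every library and only 1.16-fold higher. None of the 3 ligands was higher in that fraction. In edgeR, 4 of the 7 genes were higher and 1 was lower in the positive fraction against input (adjusted p under 0.05), where 23.3% of all genes tested were higher and 25.6% lower. The comparisons of the Cx3cr1-NuTRAP positive fraction with input, negative fraction and whole tissue share the same positive libraries.

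Cd33, on the minus strand of chromosome 7 (43527456 to 43533171 in mm10), encodes a sialic acid binding receptor. Its level in the 6 Cx3cr1-NuTRAP positive libraries ran from 21.8 CPM through a median of 24.7 to 35.9 CPM. In input it ran from 3.19 through 4.04 to 5.73 CPM, and in the negative fraction from 1.24 through 2.66 to 3.46 CPM. Every positive library thus lay above every input, negative and whole tissue library, in which the highest value was 5.75 CPM. The fold change over input was 6.29 (log2 2.65, SE 0.17, edgeR adjusted p = 4.29e-08) and over the negative fraction 10.5 (log2 3.40, SE 0.21, adjusted p = 2.58e-08). Over whole tissue the log2 fold change was 2.66 (SE 0.19, adjusted p = 5.11e-07). Whole tissue of mouse 210 held 16.0 counts, so Cd33 passed the filter on low counts in that comparison through the positive fraction alone. In the Aldh1l1-NuTRAP mice the order was the opposite, with 1.50, 0.46 and 0.43 CPM in the positive fractions of mice 290, 293 and 294 and 2.76, 4.13 and 3.27 CPM in their negative fractions. Cd33 passed the filter on low counts there through the negative fraction alone, in which it is high. The log2 fold change was -1.82 (SE 0.51, adjusted p = 0.0211), and the call was lost without mouse 293 (-1.35, adjusted p = 0.193) or mouse 294 (-1.50, adjusted p = 0.154). Without mouse 290, whose positive fraction was the highest of the 3, the value was -2.68 (adjusted p = 1.47e-04).

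Lair1, on the minus strand of chromosome 7 (4007073 to 4063204), encodes an inhibitory receptor for collagens and for the complement protein C1q. Its Cx3cr1-NuTRAP positive libraries held 33.6 to 79.6 CPM, with a median of 45.3 CPM. Input held 5.42 to 8.75 CPM with a median of 7.92 CPM, and the negative fraction 6.71 to 9.24 CPM with a median of 7.39 CPM. Mouse 194 stood apart at 79.6 CPM, and the other 5 positive libraries stayed at or below 46.3 CPM but far above every unbound library. The fold change over input was 6.53 (log2 2.71, SE 0.19, edgeR adjusted p = 1.20e-07), and log2 2.46 without mouse 194. Over the negative fraction it was log2 2.71 (SE 0.18, adjusted p = 6.07e-08) and over whole tissue log2 2.87 (SE 0.22, adjusted p = 7.86e-07). Cd33 and Lair1 are on a list of microglial ribosome-tagging genes that the study drew partly from these libraries, so their rise over input is not independent evidence.

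Lair1 also rose in the astrocyte pulldown, at a lower level. The Aldh1l1-NuTRAP positive fractions of mice 290, 293 and 294 held 10.0, 10.4 and 10.6 CPM, and their negative fractions 7.84, 6.58 and 7.75 CPM. The groups did not overlap, and each mouse was higher in its positive fraction. The log2 fold change was 0.83 (SE 0.19, edgeR adjusted p = 0.00833), while the summed microglia markers of the same libraries fell from 454 to 709 CPM in the negative to 81.1 to 169 CPM in the positive fraction. With scaling by total counts alone, which moved the median of all genes by -0.35 in this comparison, the log2 fold change of Lair1 was 0.49 (adjusted p = 0.0615), or 0.80 relative to that median. The call was also lost without mouse 293 (adjusted p = 0.135) or mouse 294 (adjusted p = 0.102).

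The promoters of Cd33 and Lair1, the receptors with the clearest rise in the Cx3cr1-NuTRAP pulldown, are shown for comparison with those of 2 ligands that did not rise. The sequences are RefSeq windows from 250 bases before to 50 after the gene start (GRCm38.p6, the assembly also called mm10), which were held for 4 of the 7 genes and are printed 5′ to 3′ on the gene's strand. Capitals mark GAGGAA and GGAAGT, core letters bound by ETS factors such as PU.1, and GGGCGG, the letters of an Sp1 box, on either strand.
Cd33, chr7:43533122-43533421, minus strand: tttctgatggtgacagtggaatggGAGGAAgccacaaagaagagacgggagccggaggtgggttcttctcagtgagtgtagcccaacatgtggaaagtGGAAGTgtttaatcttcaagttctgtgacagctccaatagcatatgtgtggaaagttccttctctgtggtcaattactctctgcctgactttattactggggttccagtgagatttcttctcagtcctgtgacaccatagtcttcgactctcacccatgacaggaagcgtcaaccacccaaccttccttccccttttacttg
Lair1, chr7:4063155-4063454, minus strand: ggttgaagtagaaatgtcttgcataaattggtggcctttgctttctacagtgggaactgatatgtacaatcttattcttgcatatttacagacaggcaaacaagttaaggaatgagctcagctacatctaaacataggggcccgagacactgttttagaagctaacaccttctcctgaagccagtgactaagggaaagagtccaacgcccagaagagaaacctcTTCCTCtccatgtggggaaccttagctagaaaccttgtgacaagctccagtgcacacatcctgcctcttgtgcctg
Cd200, chr16:45409004-45409303, minus strand: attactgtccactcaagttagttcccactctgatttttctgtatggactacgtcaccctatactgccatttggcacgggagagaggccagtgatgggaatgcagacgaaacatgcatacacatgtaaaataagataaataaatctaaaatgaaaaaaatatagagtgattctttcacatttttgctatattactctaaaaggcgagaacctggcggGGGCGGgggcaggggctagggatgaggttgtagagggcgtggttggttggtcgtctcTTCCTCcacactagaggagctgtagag
Cd47, chr16:49855404-49855703, plus strand: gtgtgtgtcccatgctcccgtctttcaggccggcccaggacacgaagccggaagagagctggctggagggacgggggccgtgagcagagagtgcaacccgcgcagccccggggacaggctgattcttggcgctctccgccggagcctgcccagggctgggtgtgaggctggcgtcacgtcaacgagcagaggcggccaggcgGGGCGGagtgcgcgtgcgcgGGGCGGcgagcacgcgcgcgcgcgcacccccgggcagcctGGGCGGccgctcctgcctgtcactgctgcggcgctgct

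The Cd33 window held GAGGAA at base 25 and GGAAGT at base 99, and the Lair1 window held GAGGAA once, on the opposite strand at base 225. Over all 27025 promoter windows, GAGGAA occurred in 28.3%, GGAAGT in 24.1% and GGGCGG in 35.9% of them. The Cd200 window also held GAGGAA (opposite strand, base 274) and a GGGCGG. Cd47 had neither ETS core but 3 copies of GGGCGG and 35 CG dinucleotides, more than 93.3% of windows, against 8 in Cd200, 4 in Cd33, 2 in Lair1 and a median of 7. A match is a run of letters in the window and no measure of binding.

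Cd200r1, on the plus strand of chromosome 16 (44765736 to 44794977), encodes the receptor of CD200, which signals through Dok adaptors. It was the rarest of the 7 genes. Its 6 Cx3cr1-NuTRAP positive libraries held 1.26 to 2.75 CPM with a median of 2.03 CPM, from 25 to 50.4 counts. Input held 0.15 to 0.50 CPM with a median of 0.33 CPM, and the negative fraction 0.20 to 0.52 CPM with a median of 0.27 CPM. Positive libraries did not overlap with any other, although whole tissue reached 0.94 CPM in mouse 210. Cd200r1 stood above input by a log2 fold change of 2.57 (SE 0.30, edgeR adjusted p = 1.17e-05), over the negative fraction 2.63 (SE 0.28, adjusted p = 7.07e-06) and over whole tissue 2.64 (SE 0.49, adjusted p = 7.59e-04). The gene passed the filter on low counts through the positive fraction alone, and with no filter its log2 fold change over input was likewise 2.57 (adjusted p = 1.02e-05). In the Aldh1l1-NuTRAP positive fraction it was listed at 0 in mice 290 and 294 and at 1.12 counts in mouse 293, all under a floor of 3 counts, and it was not tested there. In CPM of the library total, the mean Cd200r1 level of the Cx3cr1-NuTRAP positive fraction (1.95) was 11 times the mean floor of the Aldh1l1-NuTRAP positive libraries (0.176). This ratio of means is no strict bound and leaves out TMM scaling. The TMM factors of 0.73 to 0.78 in the Aldh1l1-NuTRAP positive libraries would lower it. Close relatives of the receptor, Cd200r2 to Cd200r4, and of SIRPα, the Sirpb1 genes, share sequence with them, so reads could have been split between them.

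Sirpa, on the plus strand of chromosome 2 (129592839 to 129632228), encodes the CD47 receptor that recruits the SHP phosphatases and is also known from neurons. Its 6 Cx3cr1-NuTRAP positive libraries ran from 462 CPM through a median of 491 to 560 CPM. Input ran from 416 through 438 to 454 CPM and the negative fraction from 382 through 419 to 447 CPM. The positive libraries did not overlap with the other Cx3cr1-NuTRAP libraries, yet the step was small beside that of the other receptors. Sirpa was higher by a log2 fold change of 0.22 over input (SE 0.066, edgeR adjusted p = 0.0145), 0.29 over the negative fraction (SE 0.073, adjusted p = 0.00947) and 0.66 over whole tissue (SE 0.087, adjusted p = 5.25e-05). Each of the 6 mice was higher in its positive fraction than in its input and than in its negative fraction. In the Aldh1l1-NuTRAP mice 290, 293 and 294 the positive fractions held 444, 532 and 566 CPM and the negative fractions 367, 420 and 441 CPM. These groups did not overlap, but the lowest positive library exceeded the highest negative one only narrowly. Sirpa was higher there by log2 0.67 (SE 0.15, adjusted p = 0.00715). It was 0.33 with scaling by total counts alone (adjusted p = 0.115), which is 0.64 relative to the median of all genes, and the call was lost without mouse 293 (adjusted p = 0.110) or mouse 294 (adjusted p = 0.101).

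**Figure D1:**
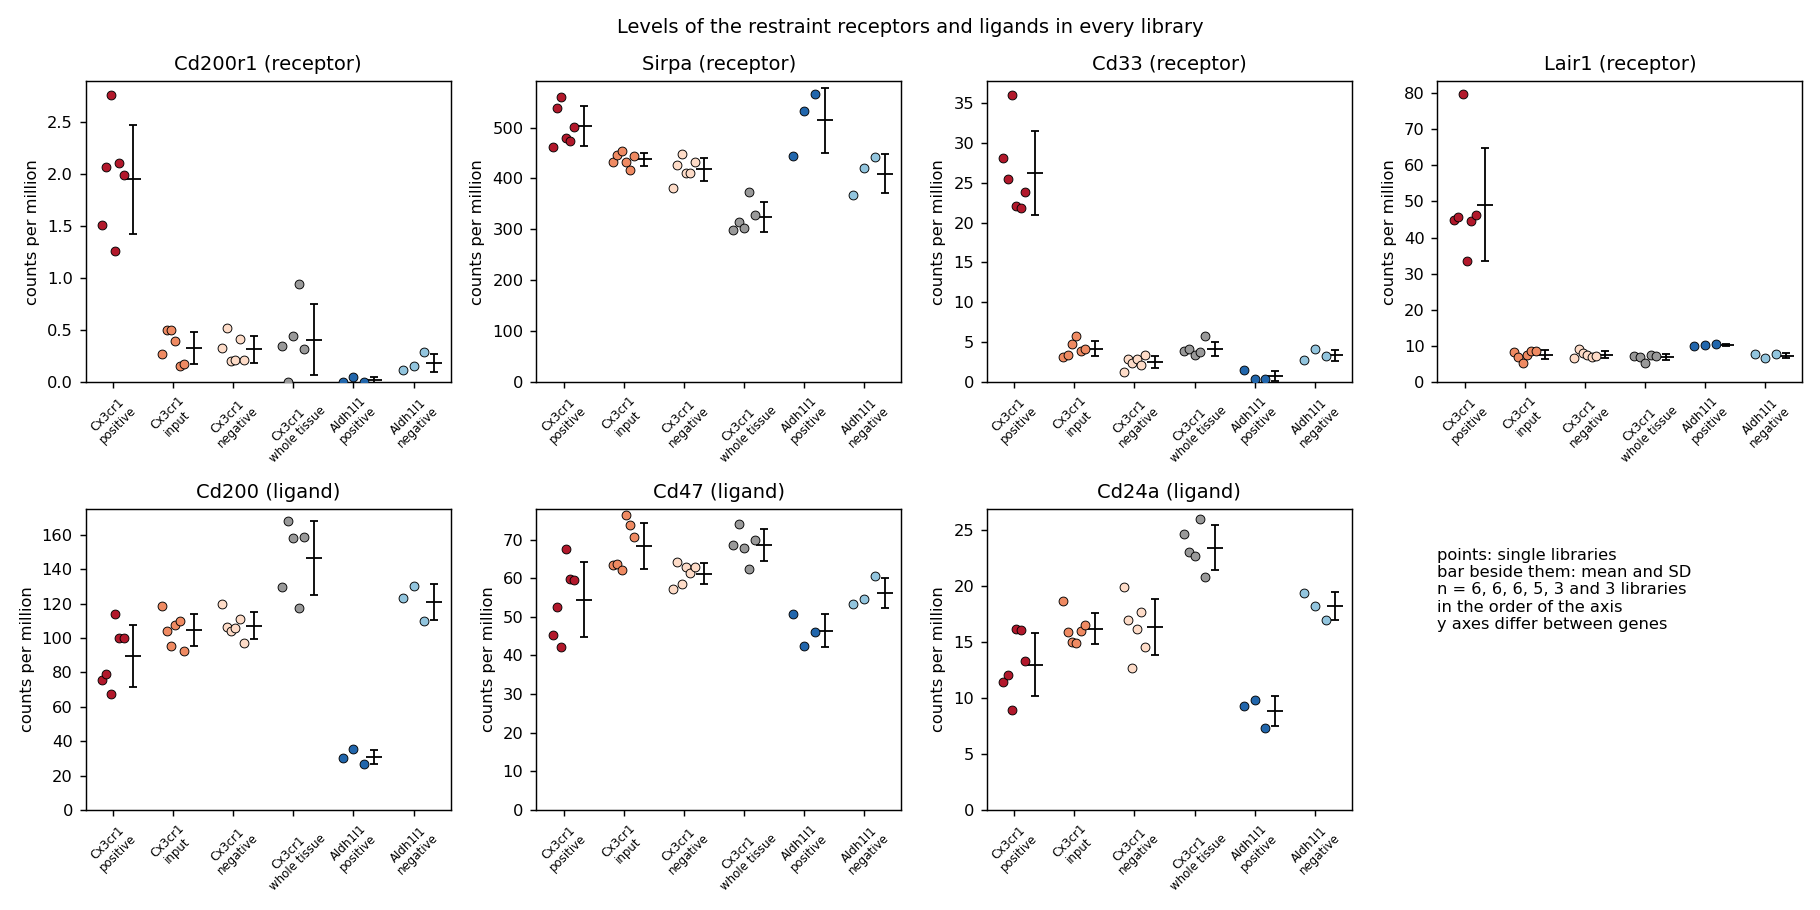
CPM (y axis, linear and from 0, scaled separately for each gene) of the 7 genes in every library of the 6 groups, with the group mean and SD beside the points. Cd200r1, Cd33 and Lair1 stand apart in the Cx3cr1-NuTRAP positive fraction, Sirpa is high everywhere, and Cd200 is lowest in the Aldh1l1-NuTRAP positive fraction at 26.7 to 35.2 CPM.

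The 3 ligands behaved otherwise: none rose in the microglial pulldown, Cd200 and Cd24a fell in the astrocyte pulldown, and Cd47 varied little among the 6 groups.

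Cd200, on the minus strand of chromosome 16 (45382135 to 45409053), encodes the membrane ligand of CD200R1. The Cx3cr1-NuTRAP positive libraries ran from 67.5 CPM through 89.8 to 114 CPM, and input from 92.6 through 106 to 118 CPM. These ranges overlapped, and 2 of 6 mice were higher in the positive fraction than in input and 4 lower. The log2 fold change over input was -0.21 (95% confidence interval -0.45 to 0.02, edgeR adjusted p = 0.126) and over the negative fraction -0.24 (interval -0.47 to 0.0017, adjusted p = 0.136). Whole tissue was highest at 117 to 168 CPM, and no positive library reached that range. Against whole tissue the log2 fold change was -0.69 (SE 0.13, adjusted p = 8.16e-04). In the Aldh1l1-NuTRAP mice 290, 293 and 294 the positive fractions held 30.2, 35.2 and 26.7 CPM, and the negative fractions 123, 130 and 110 CPM. The groups lay far apart, with a log2 fold change of -1.63 (SE 0.17, adjusted p = 2.67e-04). All 12 neuron markers were also lower in that comparison, with a median log2 fold change of -1.58. So were 9 of 10 oligodendrocyte (median -2.89), 16 of 16 microglia (-2.41) and 4 of 4 tested erythrocyte markers (-2.07). All 12 astrocyte and 4 of 5 tested ependymal markers were higher, and oligodendrocyte precursor markers went both ways. The part of these cell types in the Cd200 value was not tested.

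Cd24a, on the plus strand of chromosome 10 (43579169 to 43584265), encodes a glycosylphosphatidylinositol-anchored surface glycoprotein. Its Cx3cr1-NuTRAP positive libraries ran from 8.90 CPM through 12.7 to 16.1 CPM, and input from 14.9 through 16.0 to 18.7 CPM. The ranges overlapped, and the log2 fold change was -0.30 (95% confidence interval -0.57 to -0.03, edgeR adjusted p = 0.0581). It was called lower without mouse 209 (-0.39, adjusted p = 0.0307) or mouse 210 (-0.37, adjusted p = 0.0462). Over the negative fraction it was -0.31 (interval -0.62 to 0.01, adjusted p = 0.140). Whole tissue held 20.8 to 26.0 CPM, above every positive library, and the log2 fold change against it was -0.83 (SE 0.14, adjusted p = 3.22e-04). The Aldh1l1-NuTRAP positive fractions of mice 290, 293 and 294 held 9.34, 9.81 and 7.29 CPM and the negative fractions 19.4, 18.3 and 16.9 CPM, without overlap. The log2 fold change was -0.70 (SE 0.20, adjusted p = 0.0195), and the call was lost without mouse 293 (adjusted p = 0.124) or mouse 294 (adjusted p = 0.163).

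Cd47, on the plus strand of chromosome 16 (49855654 to 49911683), encodes the SIRPα ligand. Its group means stayed between 46.4 CPM in the Aldh1l1-NuTRAP positive fraction and 68.6 CPM in whole tissue. The Cx3cr1-NuTRAP positive libraries ran from 42.2 CPM through 56.1 to 67.5 CPM, and input from 62.1 through 67.1 to 76.3 CPM. The ranges overlapped, but each of the 6 mice was lower in its positive fraction than in its input. Cd47 thus had a log2 fold change of -0.32 over input (SE 0.10, edgeR adjusted p = 0.0225), and the call was lost without mouse 192 (adjusted p = 0.0706) or mouse 194 (adjusted p = 0.0509). Against whole tissue it was -0.32 (SE 0.11, adjusted p = 0.0229), with the call lost when the mouse was used as a block (-0.29, adjusted p = 0.0857) and without mouse 192, 194 or 277 (adjusted p = 0.0739, 0.0970 and 0.0550). Against the negative fraction it was -0.14 (95% confidence interval -0.35 to 0.07, adjusted p = 0.316). In the Aldh1l1-NuTRAP mice 290, 293 and 294 the positive fractions held 50.8, 42.4 and 46.2 CPM and the negative fractions 53.3, 54.5 and 60.5 CPM, so that in CPM every positive library lay below every negative one. In edgeR, which scales by TMM, the log2 fold change was 0.07 (interval -0.27 to 0.42, adjusted p = 0.697), with the sign turned to -0.27 under scaling by total counts, to -0.01 with a filter at 100 counts and to -0.06 without mouse 290, none of them called.

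**Figure D2:**
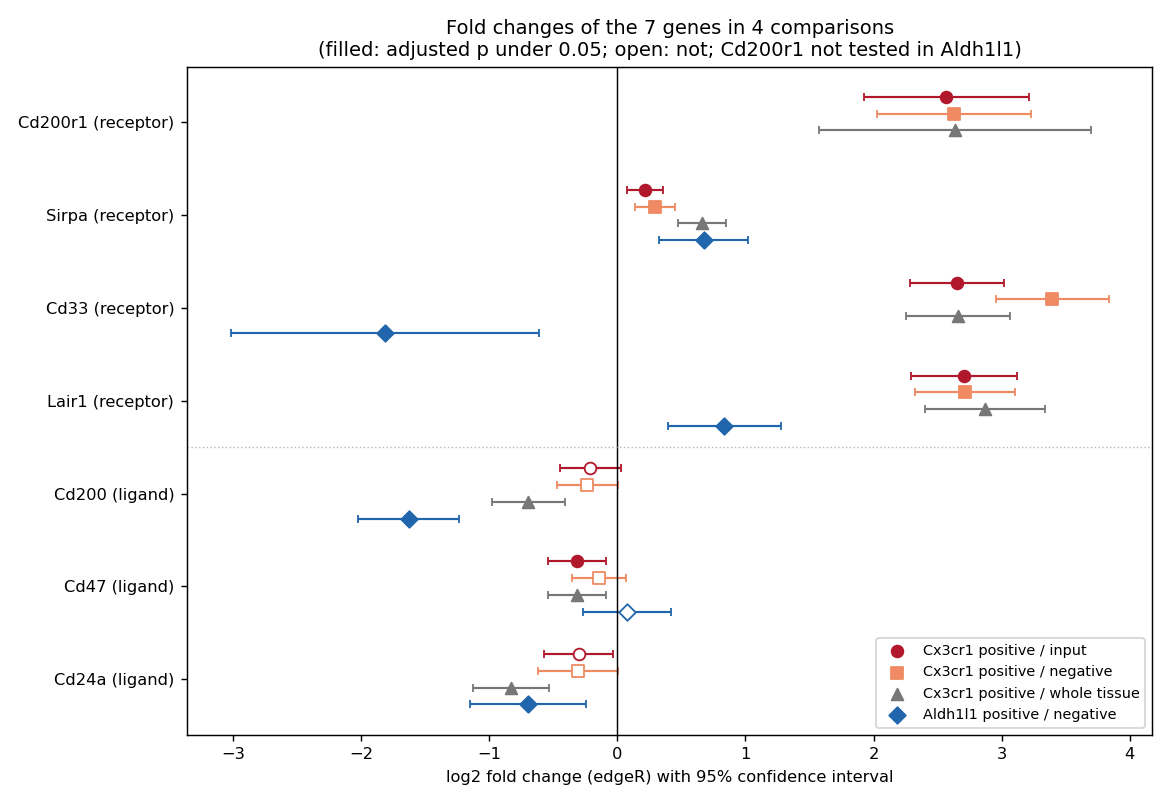
Log2 fold changes (x axis) with 95% confidence intervals from edgeR for the 7 genes in 4 comparisons, filled where the adjusted p was under 0.05. The receptors Cd200r1, Cd33 and Lair1 lie near 2.6 or above in the 3 comparisons of the Cx3cr1-NuTRAP positive fraction, Sirpa lies between 0.22 and 0.67, and the ligands lie at or below 0.07.

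Counted over the comparisons, 4 of the 7 genes were higher in the Cx3cr1-NuTRAP positive than in its negative fraction, where 12.8% of all genes were higher and 11.6% lower. Against whole tissue 4 were higher and 3 lower, beside 27.5% and 24.3% of all genes. In the Aldh1l1-NuTRAP positive fraction against its negative fraction 2 of 6 tested genes were higher and 3 lower, beside 26.8% and 24.8% of all genes, the 2 higher ones, Sirpa and Lair1, being those lost under scaling by total counts. Cd200r1, Cd33 and Lair1 exceeded 5-fold over input in the Cx3cr1-NuTRAP mice, as 2.2% of all genes did. The members passing in each comparison include those that passed the filter only through the fraction in which they are high. These were Cd200r1 in the Cx3cr1-NuTRAP comparisons, and Cd33 against whole tissue and in the Aldh1l1-NuTRAP comparison.

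The libraries of the Cx3cr1-NuTRAP positive fraction differed among themselves, as did their marker content. Mouse 194 had the highest level of all 4 receptors, at 2.75 CPM of Cd200r1, 560 CPM of Sirpa, 35.9 CPM of Cd33 and 79.6 CPM of Lair1. The same library had the lowest level of all 3 ligands, at 67.5 CPM of Cd200, 42.2 CPM of Cd47 and 8.90 CPM of Cd24a. It also had the highest sums of microglia markers (9966 CPM) and border-associated macrophage markers (248 CPM) and the lowest of astrocyte (3405 CPM) and neuron markers (6547 CPM). Mouse 209 had the lowest microglia sum (4055 CPM), the lowest Cd200r1 (1.26 CPM) and Lair1 (33.6 CPM), and the highest Cd200 (114 CPM), Cd47 (67.5 CPM) and Cd24a (16.1 CPM). The lowest Cd33 was in mouse 210 (21.8 CPM) and the lowest Sirpa in mouse 155 (462 CPM), whose Cd33 was second highest (28.1 CPM). All 3 ligands ranked the 6 libraries in the order of the neuron marker sums, whereas none of the 4 receptors ranked them wholly in the order of the microglia marker sums. The part of these marker differences in the receptor and ligand values was not tested.

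**Figure D3:**
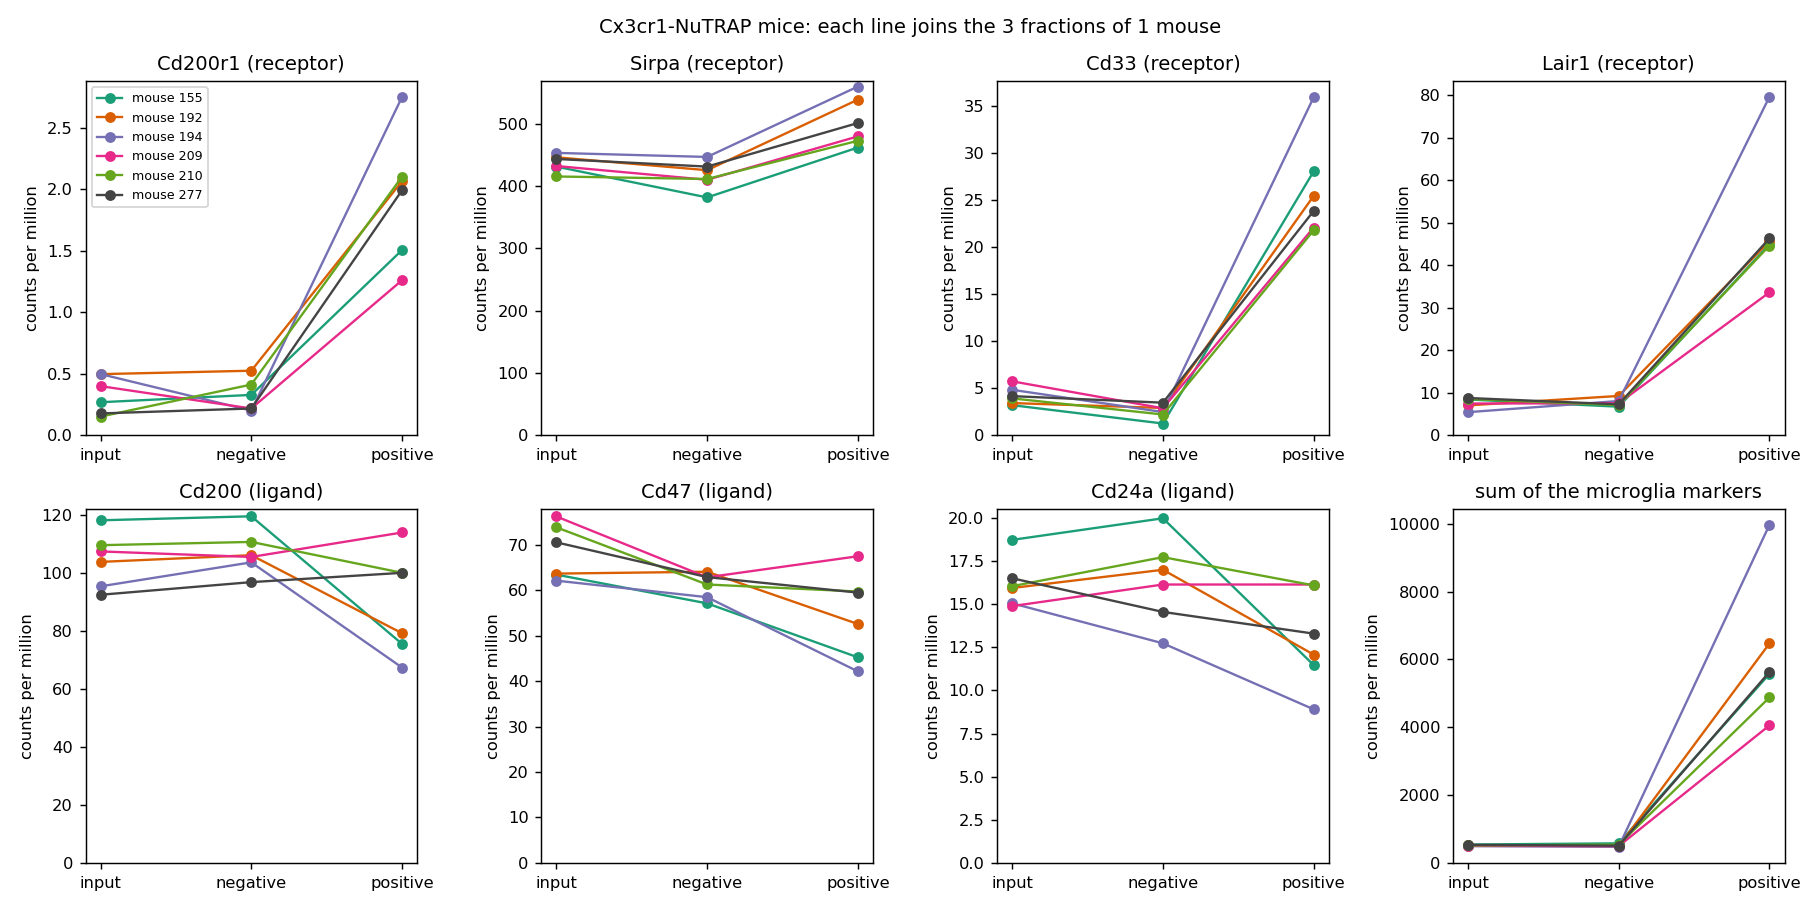
CPM (y axis, from 0) in the input, negative and positive fractions of the 6 Cx3cr1-NuTRAP mice, each line joining the fractions of 1 mouse, for the 7 genes and for the sum of 16 microglia markers. Mouse 194 has the highest receptor values and the highest marker sum (9966 CPM) in the positive fraction, and the lowest ligand values there.

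The difference between the lines was tested as an interaction, namely the positive over negative ratio of the Cx3cr1-NuTRAP mice minus that of the Aldh1l1-NuTRAP mice. Line and any difference in the interval after tamoxifen cannot be told apart in it. Of the 7 genes, 4 had a larger ratio in the Cx3cr1-NuTRAP mice and 1 in the Aldh1l1-NuTRAP mice, beside 29.9% and 25.5% of all genes. Cd33 differed by a log2 value of 5.32 (SE 0.48, edgeR adjusted p = 3.60e-08; 6.09 without mouse 290 and 4.88 to 5.59 under the other alternatives), Lair1 by 1.92 (SE 0.29, adjusted p = 2.25e-05) and Cd200 by 1.43 (SE 0.19, adjusted p = 4.62e-06). Lair1 thus rose in both pulldowns but further in the microglial one, and Cd200 fell in the astrocyte pulldown without a called change in the microglial one. Cd200r1 was also called (adjusted p = 9.24e-05), but it entered this test through the Cx3cr1-NuTRAP positive fraction alone and its Aldh1l1-NuTRAP positive libraries were under the floor, so the size of its difference is not given. Sirpa was called in the other direction, at -0.33 (SE 0.13, adjusted p = 0.0417), but not under scaling by total counts (-0.06, adjusted p = 0.724), with no filter (adjusted p = 0.0709), with a filter at 100 counts (adjusted p = 0.0612), or without mouse 155, 293 or 294 (adjusted p = 0.0502, 0.113 and 0.0985). Cd24a (0.43, 95% confidence interval -0.08 to 0.95, adjusted p = 0.142) and Cd47 (-0.17, interval -0.51 to 0.16, adjusted p = 0.367) were not called, and Cd24a was called under scaling by total counts (0.72, adjusted p = 0.0206).

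Set directly beside each other, the positive fractions differed in 5 of the 7 genes, where line and interval after tamoxifen again cannot be told apart. Against the Cx3cr1-NuTRAP positive fraction, the Aldh1l1-NuTRAP positive fraction was lower in 4 and higher in 1, beside 33.1% and 30.6% of all genes. Cd33 was lower by log2 -4.84 (SE 0.40, edgeR adjusted p = 1.87e-06, and -5.53 without mouse 290), Lair1 by -1.94 (SE 0.26, adjusted p = 7.70e-05) and Cd200 by -1.22 (SE 0.17, adjusted p = 1.09e-04). Cd200r1 was lower as well, but its size is not given, since its Aldh1l1-NuTRAP positive libraries were under the floor. Both Cd33 and Cd200r1 passed the filter on low counts here through the Cx3cr1-NuTRAP positive fraction alone, in which they are high. Cd33 held 9.56 to 17.9 counts in the Aldh1l1-NuTRAP positive fraction. Sirpa was higher by 0.34 (SE 0.12, adjusted p = 0.0285), a call lost under scaling by total counts (0.03, adjusted p = 0.841) and without mouse 155, 209, 277, 293 or 294 (adjusted p = 0.0515 to 0.124). On the CPM scale the Sirpa libraries of the 2 groups overlapped, at 444 to 566 and 462 to 560 CPM, but with TMM-scaled CPM they did not. Cd47 (0.09, 95% confidence interval -0.24 to 0.41) and Cd24a (-0.24, interval -0.69 to 0.20) did not pass the test, although Cd24a was called lower under scaling by total counts (-0.56, adjusted p = 0.0354). In the negative fractions of the lines, 0 of 6 tested genes differed in edgeR, beside 0.25% of all genes. There 1 gene, Cd200, had an unadjusted p under 0.05 (log2 0.21, adjusted p = 0.353), and DESeq2 also called 0.

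Some of the genes also differed between libraries other than the positive fraction. From whole tissue to input, Sirpa was higher (log2 0.42, SE 0.059, edgeR adjusted p = 1.75e-04), while Cd200 (-0.50, SE 0.091, adjusted p = 0.00103) and Cd24a (-0.54, SE 0.082, adjusted p = 3.40e-04) were lower, so 3 of 6 tested genes were called beside 30.3% of all genes. In each of the 5 mice Sirpa was higher, and Cd200 and Cd24a lower, in input than in whole tissue. In the same comparison all 9 endothelial markers were lower (median log2 -1.33), as were 9 of 10 oligodendrocyte markers (median -0.42), and their part in these values was not tested. From input to the negative fraction, Cd33 was lower (-0.72, SE 0.20, adjusted p = 0.0494), 1 of 6 tested genes beside 6.11% of all genes. It was lower in 6 of 6 mice. With the mouse as a block, Cd33 (-0.74, adjusted p = 0.00220) and Cd47 (-0.15, adjusted p = 0.0236) were called, and the number of all genes called went from 840 to 5115. Without a block, the Cd33 call was lost without any of mice 192, 194, 209, 210 and 277 (adjusted p = 0.0910 to 0.189). It was lost as well with RLE scaling (adjusted p = 0.0510), total counts (0.0522), no filter (0.0648) and all 6 groups in one fit (0.155), and Cd33 was not tested with a filter at 100 counts. It was kept in DESeq2 (adjusted p = 0.0106), without mouse 155 (adjusted p = 0.00697) and with the block, so without the block the call lies near the threshold in edgeR.

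The order of the groups by mean CPM of the library total differed between the genes. For Cd33 and Cd200r1 the Cx3cr1-NuTRAP positive fraction came first and the Aldh1l1-NuTRAP positive fraction last. The Cx3cr1-NuTRAP input, negative and whole tissue libraries and the Aldh1l1-NuTRAP negative libraries lay between and overlapped with each other from 1 neighbour to the next. The first group was separate from them for both genes. The last overlapped with its neighbour for Cd33, and for Cd200r1 it lay under the floor, with 1 whole tissue library (mouse 194) also listed at 0. For Lair1 the Cx3cr1-NuTRAP positive fraction was followed by the Aldh1l1-NuTRAP positive fraction, separate from both its neighbours, and the other 4 groups overlapped at means of 6.90 to 7.64 CPM. For Sirpa both positive fractions came first and overlapped, input and both negative fractions followed and overlapped, and whole tissue came last at 299 to 373 CPM, overlapping with the Aldh1l1-NuTRAP negative fraction. For the 3 ligands whole tissue came first and the Aldh1l1-NuTRAP positive fraction last. Cd47 neighbours overlapped throughout, whereas Cd200 in the last group and Cd24a in the first were separate from their neighbours. With TMM-scaled CPM the order differed for Sirpa, where the Aldh1l1-NuTRAP positive fraction (607 to 726) stood above and apart from the Cx3cr1-NuTRAP positive fraction (452 to 567) and whole tissue apart from the rest, for Cd47, where the Cx3cr1-NuTRAP positive fraction came last (mean 53.2) and the Aldh1l1-NuTRAP positive fraction above both negative fractions (mean 61.1), still with overlapping neighbours, and for Cd33 and Lair1 only among groups that overlapped on both scales.

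Levels of different genes were compared only per kilobase of exon. In the Cx3cr1-NuTRAP positive fraction Sirpa stood at 119 ± 9.23 CPM per kilobase (SD, n = 6), Lair1 at 14.0 ± 4.46, Cd33 at 12.9 ± 2.61 and Cd200r1 at 1.03 ± 0.27 CPM per kilobase. Sirpa was thus the most abundant of the receptors by this measure, also in the fractions not enriched for microglia, with 103 ± 3.19 CPM per kilobase in input. The levels of the other receptors depend on the exons counted. All transcripts span 7771 bases for Cd33 against the 2032 used here, 7475 against 3512 for Lair1 and 3348 against 1892 for Cd200r1. The ligand to receptor ratio of Cd200 over Cd200r1, per kilobase, ran from 19.8 to 73.0 (median 39.5) in the positive fraction and from 155 to 585 (median 286) in input, without overlap. The ratio of Cd47 over Sirpa ran from 0.22 to 0.41 in the positive fraction and from 0.40 to 0.52 in input, an overlap at the edges. Its size depends on the annotated length of Cd47, since the exons of all transcripts span 6276 bases and those of the protein-coding ones used here 1457 bases, and with the former the median in the positive fraction was 0.085 in place of 0.32.

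The genes most like each member over the 29 libraries, by Pearson correlation of log2 CPM among 14109 genes, are given as a description, since the libraries cluster by fraction and line and share mice. Cd33 was closest to Itgam, Tlr7 and Mpeg1 (r = 0.977, 0.975 and 0.972) and Cd200r1 to Sfpi1, Abcc3 and B230378P21Rik (r = 0.907, 0.905 and 0.904). Lair1 was closest to Ptgs1, Grn and Syngr2 (r = 0.986, 0.983 and 0.979). Sirpa, in contrast, had Eef2k, Il17ra and Dnajc1 nearest (r = 0.879, 0.875 and 0.861). Among the ligands, Cd200 was closest to Pak3, Nap1l3 and Tmem130, Cd47 to Ssbp2, Sugt1 and Smyd3, and Cd24a to Nudt4, Bcas1 and Bnip3. Between members, the highest value was r = 0.874 for Cd200 and Cd24a, and the lowest was -0.844 for Sirpa and Cd24a.

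Genes that work with these receptors were described by count and median. Of the 16 other inhibitory receptors listed, most of them with an inhibitory tyrosine motif, 13 were tested and 13 were higher in the Cx3cr1-NuTRAP positive fraction than in input, beside 23.3% of all genes, with a median log2 fold change of 2.61 against -0.0027 over all genes. Of these, 8 passed the filter on low counts through the positive fraction alone, in which they are high, so this count and median are a description. The 5 that passed it in both groups were also higher, with a median of 1.47. Havcr2 (TIM-3), whose tail has tyrosines but no classical inhibitory motif, rose by 3.59 (SE 0.21, edgeR adjusted p = 2.73e-08) and Siglece, a sialic acid receptor, by 3.46 (SE 0.27, adjusted p = 1.90e-07). The smallest rises were those of Ceacam1, an adhesion receptor, at 1.10 (adjusted p = 2.26e-04) and Pecam1, which is also on the endothelial marker list, at 0.78 (adjusted p = 1.19e-04). In the Aldh1l1-NuTRAP comparison 5 of these receptors were tested and 3 were lower, beside 24.8% of all genes, with a median of -1.47, and 3 of the 5 passed the filter through the negative fraction alone. Of the 2 that passed in both groups 1 was lower, with a median of -0.86.

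Of the 9 signalling effectors 8 were tested, and 6 were higher and 1 lower in the Cx3cr1-NuTRAP positive fraction than in input, beside 23.3% and 25.6% of all genes, with a median of 1.70. Each of the 8 passed the filter in both groups. Ptpn6, the phosphatase SHP-1, rose by 3.68 (SE 0.21, edgeR adjusted p = 2.48e-08) and Inpp5d, the lipid phosphatase SHIP-1, by 2.92 (SE 0.18, adjusted p = 4.36e-08). Csk, a kinase that inhibits Src kinases, rose by 0.80 (adjusted p = 1.90e-05), and Ptpn11, the related phosphatase SHP-2, fell by 0.20 (adjusted p = 0.0364). In the Aldh1l1-NuTRAP comparison the 2 phosphatases parted again, with Ptpn6 at -2.04 (adjusted p = 6.53e-04) and Ptpn11 at 0.68 (adjusted p = 0.0385), Ptpn6 having passed the filter through the negative fraction alone.

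Of the 9 activating relatives coupled to DAP12, 8 had a row and 3 were tested, all of them higher, beside 23.3% of all genes: Tyrobp (DAP12 itself) rose by 3.92 over input, Trem2, a lipid receptor, by 3.76 and Siglech by 3.54 (adjusted p = 7.72e-08, 1.56e-08 and 3.83e-08 in edgeR). Trem2 and Siglech are also on the microglia marker list. The 3 genes fell in the Aldh1l1-NuTRAP positive fraction, by 3.03, 2.56 and 3.09, where 2 of the 3 passed the filter through the negative fraction alone.

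The other ligands of these receptors were 12 genes of complement C1q, collagens, thrombospondins (ligands of CD47) and the collectin Colec12, of which 3 were higher and 4 lower over input, beside 23.3% and 25.6% of all genes, with a median of -0.17. The 3 higher ones were C1qa, C1qb and C1qc, which LAIR1 can bind, with C1qa at 3.92 (edgeR adjusted p = 1.45e-08) and C1qc at 3.89 (adjusted p = 2.12e-08). They are microglia markers as well. The collagens Col1a1 (-0.86, adjusted p = 0.00969) and Col1a2 (-0.86, adjusted p = 8.23e-05) were lowest. Among 18 tested genes of sialic acid synthesis and transfer, which make the ligands of CD33, 3 were higher and 6 lower, shares near the 23.3% and 25.6% of all genes, with a median of -0.04, so the list as a whole did not stand apart by its counts. The sialyltransferase St3gal6 rose by 1.01 (adjusted p = 1.43e-04) and the synthase Nans by 0.43 (adjusted p = 8.19e-04). St6gal2, which passed the filter through input alone, fell by 1.69 (adjusted p = 1.50e-05) and the polysialyltransferase relative St8sia3 by 0.46 (adjusted p = 2.94e-04).

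**Figure D4:**
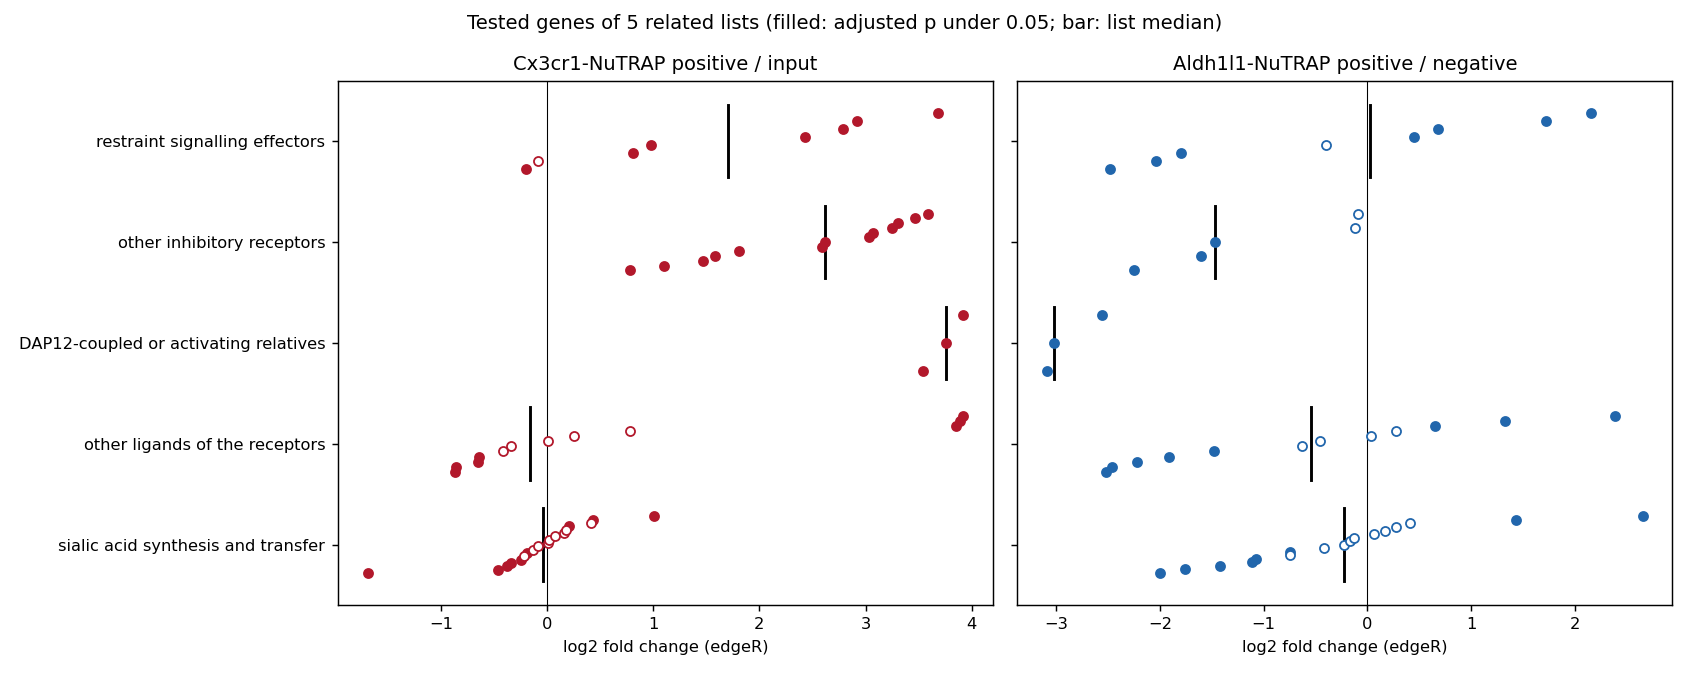
Log2 fold changes (x axis) from edgeR of the tested genes of 5 related lists in the Cx3cr1-NuTRAP positive fraction against input (left) and in the Aldh1l1-NuTRAP positive against negative fraction (right), filled where the adjusted p was under 0.05, with the list median as a bar. On the left the 13 tested inhibitory receptors, 8 of which passed the filter through the positive fraction alone, lie above 0 with a median of 2.61, and on the right the 5 tested ones, 3 of which passed it through the negative fraction alone, lie below 0 with a median of -1.47.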

How the data were processed

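RNA of 29 TRAP and whole tissue libraries was sequenced by the authors, who trimmed the reads, aligned them with strand to mm10 and assigned them to RefSeq genes in Strand NGS. The raw columns deposited by the authors are expected counts per gene without normalization, of which 81.4% of the nonzero values are not whole (tolerance 0.001). The other columns deposited by the authors are DESeq-normalized log2 values, which were not used for any result. Of 36172 rows, 14057 were at 0 in every library, and every per-sample column (0 exceptions) was matched to a sample by its label.

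Counts were rounded. A gene entered a test when all libraries of a compared group exceeded 20 counts. The test was edgeR's quasi-likelihood test (version 4.0.16 in R 4.3.3, TMM scaling, robust, two-sided), with Benjamini-Hochberg adjustment over all genes tested and a threshold of 0.05, without a block for the mouse. Only the groups compared entered a fit. Levels are CPM of the library total. Levels per kilobase use the exons of protein-coding GENCODE transcripts of GRCm38, from the basic set and inside the gene span of the count table. Confidence intervals of fold changes are at 95%. Total counts ranged from 4260949 to 26857866, so 3 counts, the floor, matter only for Cd200r1, and such limits cover counting error only.

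The members and gene lists were chosen with earlier results of these data known. The genes named are the 7 members, the 3 genes most correlated with each, and from each list the 2 highest and 2 lowest called genes over input. Pirb is listed as Lilrb3. Fractions of 1 mouse share an animal, and their residuals correlated above 0.1 in 3 of 3 Aldh1l1-NuTRAP pairs, in 5 of 6 Cx3cr1-NuTRAP pairs of unbound RNA with input, in 3 of 6 of the positive fraction with each of these, and in 0 of 5 with whole tissue. Alternatives were RLE and total-count scaling, no filter, a filter at 100 counts, DESeq2 1.42.0, all groups in one fit, the mouse as a block, TMM-scaled CPM, and leaving out each mouse. The edgeR step was tested on simulated data. Python 3.11.15 with pandas 2.3.3, numpy 2.4.6 and matplotlib 3.10.9 was used.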

Additional observations from a re-analysis of the deposited data

Results flagged for a closer look

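In the Cx3cr1-NuTRAP positive fraction, Lair1 in mouse 194 (79.6 CPM) stood apart from the other 5 libraries, which lay at 33.6 to 46.3 CPM. In whole tissue, Lair1 in mouse 209 (5.38 CPM) stood below the other 4 libraries. These were the 2 of 32 groups of 5 or 6 libraries, over the member levels and library totals, in which a library stood apart by Dixon's criterion, and chance alone flags about 1 in 20 groups.

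For 5 genes the positive over negative ratio differed between the lines in the interaction test of edgeR, given as the log2 ratio in Cx3cr1-NuTRAP minus that in Aldh1l1-NuTRAP mice. The fitted value of Cd200r1 was 5.46, which is no measure or bound of size, since its Aldh1l1-NuTRAP positive libraries are under the floor, it passed the filter through the Cx3cr1-NuTRAP positive fraction alone, and it ran from 4.42 to 7.79 over the alternatives. The values were 5.32 for Cd33, 1.92 for Lair1, 1.43 for Cd200 and -0.33 for Sirpa, the last of which was lost under several alternatives.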

How the results depend on the processing

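Over the alternatives to the fold changes given in the report, 574 of 623 values kept their direction and their side of the threshold. Another 37 lost the call, 6 gained one and 6 changed sign. These 6 changes of sign were of Cd47 and none was called: in the Aldh1l1-NuTRAP comparison -0.27 with total counts, -0.0088 with a filter at 100 counts and -0.064 to 0.15 without 1 mouse, in the difference between the lines 0.11 with total counts, and between the positive fractions -0.23 with total counts and -0.0062 to 0.20 without 1 mouse. Over all 786 alternative values of the 7 genes, 24 more changed sign, none of them called and all in fold changes that the report does not print: Cd33 and Cd47 from whole tissue to input, Lair1 and Cd24a from input to negative fraction, and Sirpa and Lair1 between the negative fractions. Of the 7 genes, the number called in the Aldh1l1-NuTRAP comparison went from 5 to 3 with total counts and to 1 to 5 without 1 mouse, being 1 without mouse 293 or 294. In the difference between the lines it went from 5 to 3 with a filter at 100 counts, under which fewer genes are tested. In negative fraction against input it went from 1 to 0 with RLE, total counts, no filter, a filter at 100 counts or all 6 groups in one fit, to 2 with the mouse as a replicate block and to 0 to 2 without 1 mouse. The number of all genes called there went from 840 to 281 with no filter, 2056 in DESeq2, 59 with all groups, 5115 with the block and 0 to 3815 without 1 mouse. It ranged without 1 mouse from 1747 to 4273 (3352 with all mice) in Cx3cr1-NuTRAP positive against negative fraction, from 3587 to 9731 (6868) in Aldh1l1-NuTRAP positive against negative fraction, from 2574 to 5395 (4123, and 2450 with all groups) in input against whole tissue, and from 0 to 133 (34, with 14 without filter and 517 in DESeq2) between the negative fractions. The cause of these changes was not tested. The block, with mice paired by their numbers in the labels, changed the call of Cd47 in negative fraction against input and in positive fraction against whole tissue and of no other gene of the 7. It was also fitted to the difference between the lines in positive over negative fraction (5 of the 7 genes called, as without it), but not to the direct comparisons of positive or of negative fractions between the lines, whose mice differ. Of 42 group levels, 7 moved by more than 1 SD with TMM-scaled CPM, 5 of them in the Aldh1l1-NuTRAP positive fraction. Depth limits Cd200r1 most, with 0 to 11.2 counts per library outside the Cx3cr1-NuTRAP positive fraction.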

Other observations

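Of 8 tested effectors of restraint signalling, 4 were higher and 3 lower in the Aldh1l1-NuTRAP positive than in its negative fraction, beside 26.8% and 24.8% of all genes, with a median log2 fold change of 0.02. Among the 5 that passed the filter on low counts in both fractions, 3 were higher and 1 lower, with a median of 0.45. Skap2, an adaptor that binds SIRPα signalling partners, was higher by 2.15 (SE 0.18, edgeR adjusted p = 1.13e-04) and Dok1, a relative of the adaptor of CD200R1, by 1.72 (SE 0.47, adjusted p = 0.0186). Fyb, an adaptor of haematopoietic cells, fell by 2.48 (SE 0.67, adjusted p = 0.0172). Dok1 passed the filter on low counts through the positive and Fyb through the negative fraction alone. These 3 genes were named after their values were seen. Skap2 (0.98), Dok1 (2.43) and Fyb (2.79) were all higher in the Cx3cr1-NuTRAP positive fraction than in input. Among 17 tested genes of sialic acid synthesis and transfer, 2 were higher and 6 lower in the Aldh1l1-NuTRAP comparison, beside the same shares of all genes, with a median of -0.22 against 0.04 over all genes tested.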
